A study of Gallus gallus with 6 samples.

Results

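The genes described here are those of TGF-beta itself, of the receptors that bind it and of the proteins that keep it latent. They are the ligands TGFB2 and TGFB3, the receptors TGFBR1, TGFBR2, TGFBR3 and ENG, the latent TGF-beta binding proteins LTBP1, LTBP2 and LTBP3, and LRRC32. Every probe set of an Affymetrix chicken array whose annotated symbol was exactly 1 of these 10 names was taken, which gave 25 of 38439 probe sets and covered 9 of the 10 genes, among 13009 genes named on the array. No probe set carried the symbol LTBP3. The measurements were made in cultured dermal myofibroblasts that grew out of skin explants taken on day 10 from chicken embryos of the brown Leghorn breed and were kept in medium with 4% fetal bovine and 2% chicken serum. The inhibitor group received TGFBR1 Kinase Inhibitor II, a compound directed at the kinase activity of TGFBR1, the type I receptor, at 500 nM in DMSO for 48 h, and the control group received only 0.1% DMSO. Each group had 3 biological replicates with 1 array each, and whether the cultures came from separate embryos is not stated, so p-values reflect only the spread between these 6 samples, which may be technical.

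TGF-beta is secreted bound to its own propeptide, and this latent complex is joined inside the cell to a latent TGF-beta binding protein, which anchors it in the matrix on fibrillin and fibronectin, or to LRRC32 (also called GARP), which holds it on the cell surface. Once released, the ligand binds the type II receptor TGFBR2, which phosphorylates the type I receptor TGFBR1, and TGFBR1 in turn phosphorylates SMAD2 and SMAD3. TGFBR3 (betaglycan) and ENG (endoglin) are co-receptors that present ligand and have no kinase. In fibroblasts of the skin this pathway is known for driving matrix production and the myofibroblast state. Mechanical pull by integrins on the anchored complex is a known way of releasing the ligand.

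All values are log2 intensities, on which a difference of 1 is a 2-fold change and probe sets with little signal gather between about 2 and 3. A probe set was tested if it reached 4 in at least 3 of the 6 arrays, and 16567 were. A call is an adjusted p under 0.05 in limma with Benjamini-Hochberg adjustment over all of these. Of the tested probe sets, 2283 were called, which is 13.8%, and this count lay between 1107 and 1658 when any 1 array was left out. Same-numbered arrays of the groups varied together, and with the replicate number as a block 4661 (28.1%) were called. All 15 fibroblast markers on a fixed list passed the filter, with vimentin, VIM, at a mean of 15.8 and collagen COL1A1 at 15.5 in DMSO arrays; of the 15, PDGFRB rose and TWIST2 and POSTN fell, and 8 passed with the replicate block. The linear intensities of the 15 summed to between 274660 and 324939 in DMSO and between 208900 and 261580 in inhibitor arrays, lower without overlap. Among the brightest of them, POSTN stood at -2.81, LUM at -1.95 (limma adjusted p 0.0651), COL5A1 at -0.81, COL6A3 at -0.54 and COL1A2 at -0.35. COL1A1, DCN, VIM and COL3A1 stood at -0.11, -0.03, 0.003 and 0.004. The remaining markers were PDGFRB at 1.20, TWIST1 at 0.85 (limma adjusted p 0.0661), PRRX1 at 0.25, THY1 at 0.24, PDGFRA at 0.02 and TWIST2 at -0.58. With the replicate block PDGFRB and TWIST1 passed as higher, and COL1A2, COL5A1, COL6A3, LUM, POSTN and TWIST2 as lower. POSTN, COL1A1, COL1A2 and COL3A1 are also counted among the target genes below. The part of the lower sum in the lower values described here was not tested. Of the muscle-type contractile genes that mark myofibroblasts, TAGLN had a DMSO mean of 13.6 and ACTA2 a mean of 7.43. CNN1 and LMOD1 were not named on the array, and of the 7 tested, TPM1 (-0.36) and ACTG2 (-2.24) fell. The others were not called, with ACTA2 at 0.46, MYL9 at 0.22, TPM2 at 0.19, CALD1 at -0.17 and TAGLN at -0.18. Their summed linear intensities were 92932 to 118375 in DMSO and 82301 to 96872 in inhibitor arrays, which overlap. Of 10 keratinocyte markers on the array only KRT14 passed the filter (5.31 in DMSO), and it was not called.

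Of the 25 probe sets, 14 passed the filter and covered 8 genes, and 11 stayed below it. With the inhibitor LTBP1 fell 2.42-fold to 3.57-fold, depending on the probe set, TGFBR1 itself fell 1.56-fold, and LRRC32 rose 2.04-fold by its brightest probe set. TGFB3 was 2.03-fold lower by its brighter probe set, a difference that missed the threshold without a block (limma adjusted p 0.0603) and passed with the replicate number as a block (0.0308). TGFB2, TGFBR3, ENG and LTBP2 did not pass, and both probe sets of TGFBR2 were too dim to be tested. By probe set 5 of 14 were called lower and 2 higher, where 6.51% of all tested probe sets were called lower and 7.27% higher. With the replicate block the counts were 7 lower and 3 higher, against 13.2% and 14.9% of all tested. The median log2 difference of the 14 was -0.67, and that of all tested probe sets 0.01. LTBP1 holds 4 of the 5 probe sets called lower. Counted by gene, 2 of 8 were called lower and 1 higher, against 7.5% and 8.17% of all tested genes. The median by gene was -0.38, against 0.01 over all tested genes. The inhibitor and DMSO arrays did not overlap in 9 of the 14, against 35.8% of all tested probe sets.

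**Figure D1:**
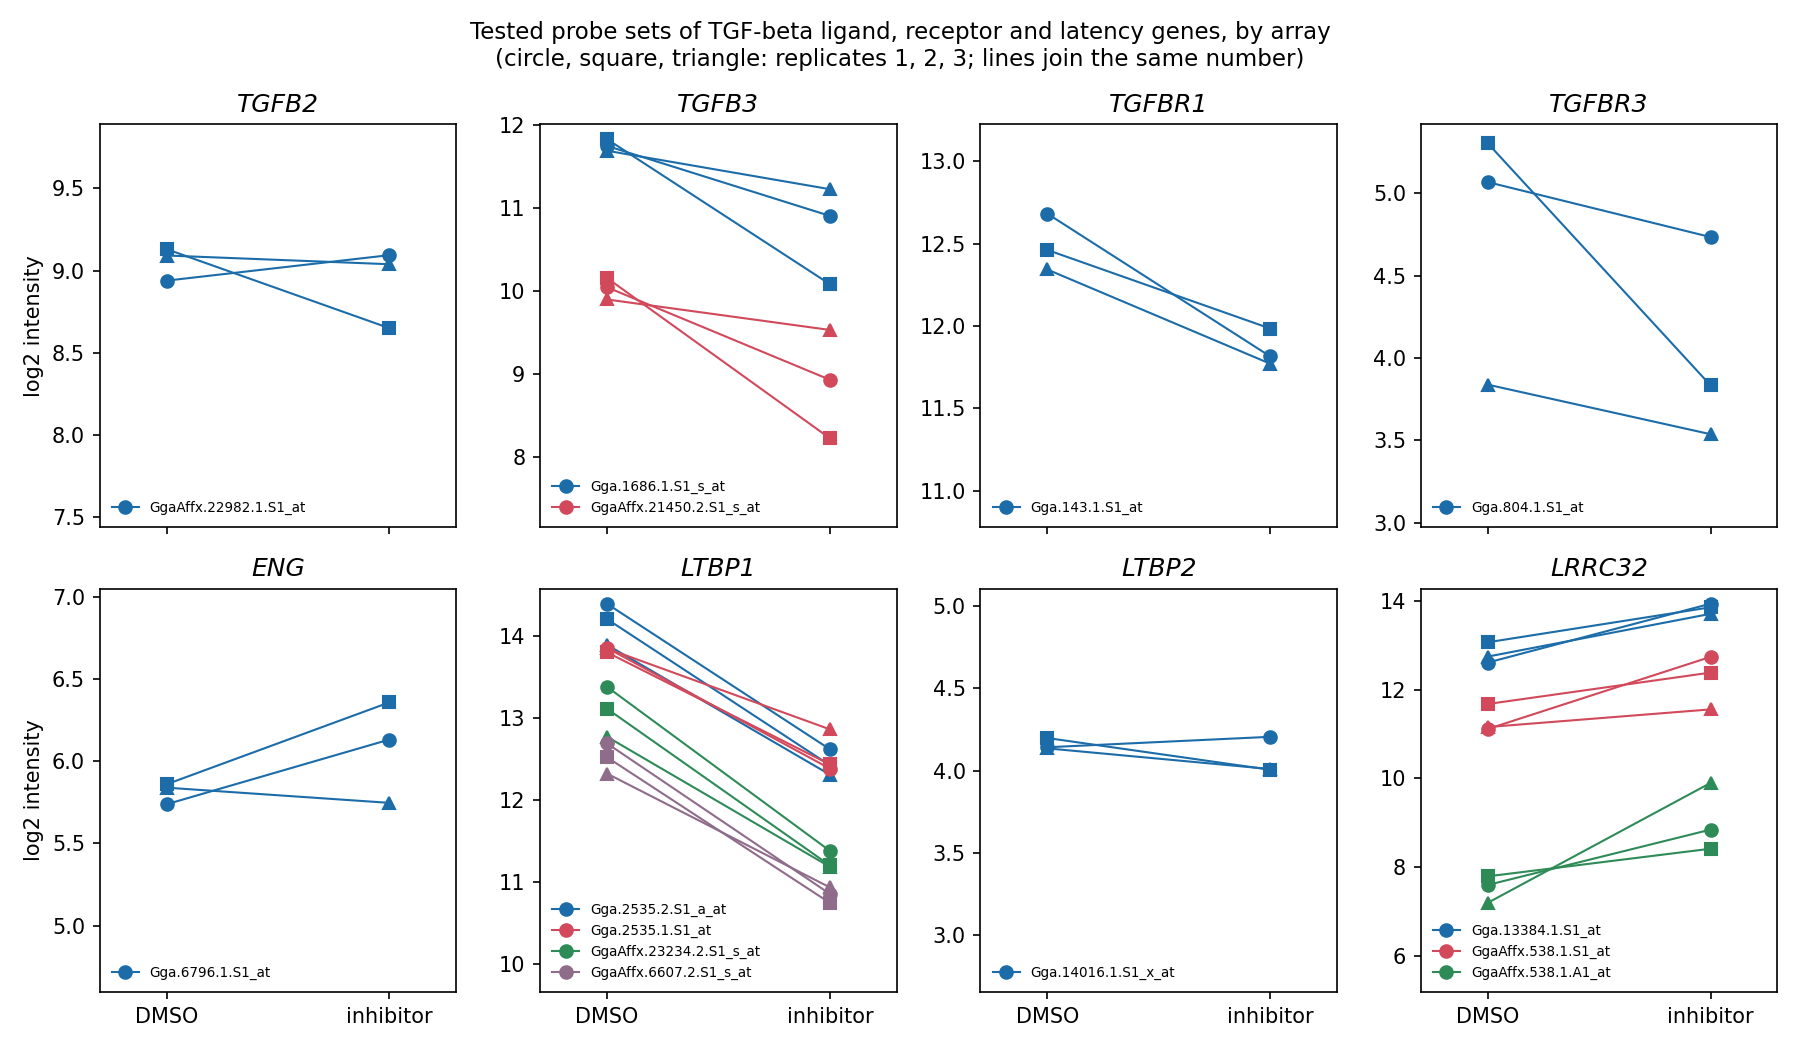
Log2 intensity (y axis) of the 14 tested probe sets in DMSO and inhibitor arrays (x axis), with a panel per gene, a colour per probe set and lines joining arrays of the same replicate number. The lines of LTBP1 run down nearly in parallel, those of TGFB3 start together in DMSO arrays and spread from 10.08 to 11.23 in inhibitor arrays for the brighter probe set, and those of LRRC32 run up; each panel has its own y scale.

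Of the ligands, TGFB3 was measured by 2 probe sets. The brighter one read 11.75, 11.83 and 11.69 in DMSO replicates 1, 2 and 3 and 10.91, 10.08 and 11.23 in inhibitor replicates 1, 2 and 3. All 3 inhibitor arrays lay below all 3 DMSO arrays, and the spread between replicates was almost wholly on the inhibitor side, with an SD of 0.59 against 0.07. The log2 difference was -1.02 ± 0.28 (SE, 3 arrays per group), a 2.03-fold lower mean with a 95% interval from -1.69 to -0.35. The call with the replicate block was lost when replicate number 1 was left out (-1.11, limma adjusted p 0.0999) and held without number 2 (-0.65, 0.0371) or number 3 (-1.30, 0.00884).

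The dimmer TGFB3 probe set gave a like picture. It read 10.05, 10.16 and 9.90 in DMSO arrays and 8.93, 8.22 and 9.53 in inhibitor arrays, again without overlap. Its difference was -1.14 ± 0.32 (limma adjusted p 0.0622; with the block 0.0373, and 0.139 and 0.0873 with the block and without number 1 or 2). Both probe sets placed the replicates in the same order, with the smallest difference in replicate 3 (-0.46 and -0.37), a middle one in replicate 1 (-0.85 and -1.12) and the largest in replicate 2 (-1.75 and -1.94). The range over inhibitor arrays was 1.15 for the brighter probe set and 1.31 for the dimmer, against a median of 0.38 over all tested probe sets. Over DMSO arrays the ranges were 0.14 and 0.26, against a median of 0.33. Without a block, the brighter probe set was called without inhibitor 2 (-0.69, limma adjusted p 0.0307) and without inhibitor 3 (-1.27, 0.0394), and the dimmer one without inhibitor 3 (-1.46, 0.0241). Names ending in _s_at mark probe sets whose probes can match more than 1 transcript, which holds for both.

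TGFB2, the other ligand, rests on 1 probe set. It read 8.94, 9.13 and 9.09 in DMSO arrays and 9.09, 8.65 and 9.04 in inhibitor arrays. The groups overlapped, and inhibitor 2 was the only inhibitor array below all DMSO arrays. The difference was -0.13 ± 0.15, with a 95% interval from -0.49 to 0.23 (limma adjusted p 0.634), so a fall of more than 1.40-fold lies outside the interval. Replicate 2, in which TGFB3 differed most, was also the replicate with the lowest TGFB2 difference (-0.48, against 0.16 and -0.05). Intensities of different probe sets are on no common scale of abundance, so only the change of the within-array difference between TGFB3 and TGFB2 is given. It was -0.89 by the brighter TGFB3 probe set and -1.01 by the dimmer one. An exact permutation test over the arrays gave a two-sided p = 0.1 for each, and no lower p can be reached with 3 arrays per group.

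The third ligand of this family, TGFB1, known in older chicken work as TGFB4, was on the array but is not among the 10 genes. Its probe set averaged 9.75 in DMSO and 9.11 in inhibitor arrays, a difference of -0.64 ± 0.24 (limma adjusted p 0.136; with the block 0.0448). Its groups overlapped, as inhibitor 2 at 9.57 lay above DMSO 1 at 9.43.

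Among the receptors TGFBR1, the kinase that the compound blocks, fell. Its only probe set read 12.68, 12.46 and 12.34 in DMSO arrays and 11.81, 11.98 and 11.77 in inhibitor arrays. Every inhibitor array was below every DMSO array, and the differences within the 3 same-numbered pairs were -0.87, -0.48 and -0.57. The difference was -0.64 ± 0.11, a 1.56-fold fall with a 95% interval from 1.29-fold to 1.88-fold (limma adjusted p 0.0148). The call did not hold without inhibitor 1 (-0.62, limma adjusted p 0.0585) and held without any other single array. Of all tested probe sets 7.61% had a difference this low or lower.

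TGFBR2, the type II receptor that binds the ligand, was read by 2 probe sets that both stayed under 4 on every array. The one ending in S2_at read 3.75, 2.76 and 2.49 in DMSO arrays and 2.48, 2.55 and 2.42 in inhibitor arrays, and the one ending in S1_at read 3.50, 2.96 and 2.31 against 2.28, 2.24 and 2.29. In both probe sets DMSO 1 was the highest array and DMSO 2 the next, while DMSO 3 and the inhibitor arrays all lay at 2.55 or lower. In a fit of all probe sets with no filter, the differences of -0.52 ± 0.31 and -0.65 ± 0.28 had limma adjusted p-values of 0.503 and 0.371. Values at this level carry little information on abundance, so the level of this receptor was not measurable here.

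The co-receptors did not pass. TGFBR3, betaglycan, read 5.07, 5.31 and 3.84 in DMSO arrays and 4.73, 3.83 and 3.54 in inhibitor arrays, and DMSO 3 was level with inhibitor 2. All 3 pairs had lower TGFBR3 with the inhibitor, by -0.33, -1.47 and -0.30, and the difference was -0.70 ± 0.47 (limma adjusted p 0.379; with the block 0.115). It stood at -1.15 without DMSO 3 and at -0.42 without DMSO 2, and did not pass in either case. Several of its values lie close to the filter's limit of 4.

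ENG, endoglin, a co-receptor best known from endothelial cells, read 5.74, 5.86 and 5.84 in DMSO arrays and 6.13, 6.36 and 5.75 in inhibitor arrays. Inhibitor 1 and 2 lay above all DMSO arrays, and inhibitor 3 did not. The difference was 0.27 ± 0.18, with a 95% interval from -0.18 to 0.71 (limma adjusted p 0.395; with the block 0.295). Of 14 endothelial markers on the array 4 passed the filter, with DMSO means of 10.49 for ERG, 8.38 for CLDN5, 5.53 for PECAM1 and 5.03 for SOX18, and 1 of these, the adhesion receptor PECAM1, fell (-0.82 ± 0.20, limma adjusted p 0.0409). ERG, SOX18 and CLDN5 stood at 0.20, 0.18 and -0.14 and were not called. The defining receptors KDR, TEK and TIE1 stayed near the floor, with highest array values of 3.15, 2.52 and 2.43. VWF, FLT1 and cadherin CDH5 reached 4.98, 4.79 and 4.03 on their highest arrays and were not tested. From DMSO to inhibitor arrays the mean of VWF went from 4.11 to 3.74, that of FLT1 from 3.11 to 3.76 and that of CDH5 from 2.76 to 3.18. The linear intensities of the 14 markers summed to between 1703 and 2081 in DMSO and between 1994 and 2350 in inhibitor arrays, which overlap. This sum rests mainly on ERG, with CLDN5 next.

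**Figure D2:**
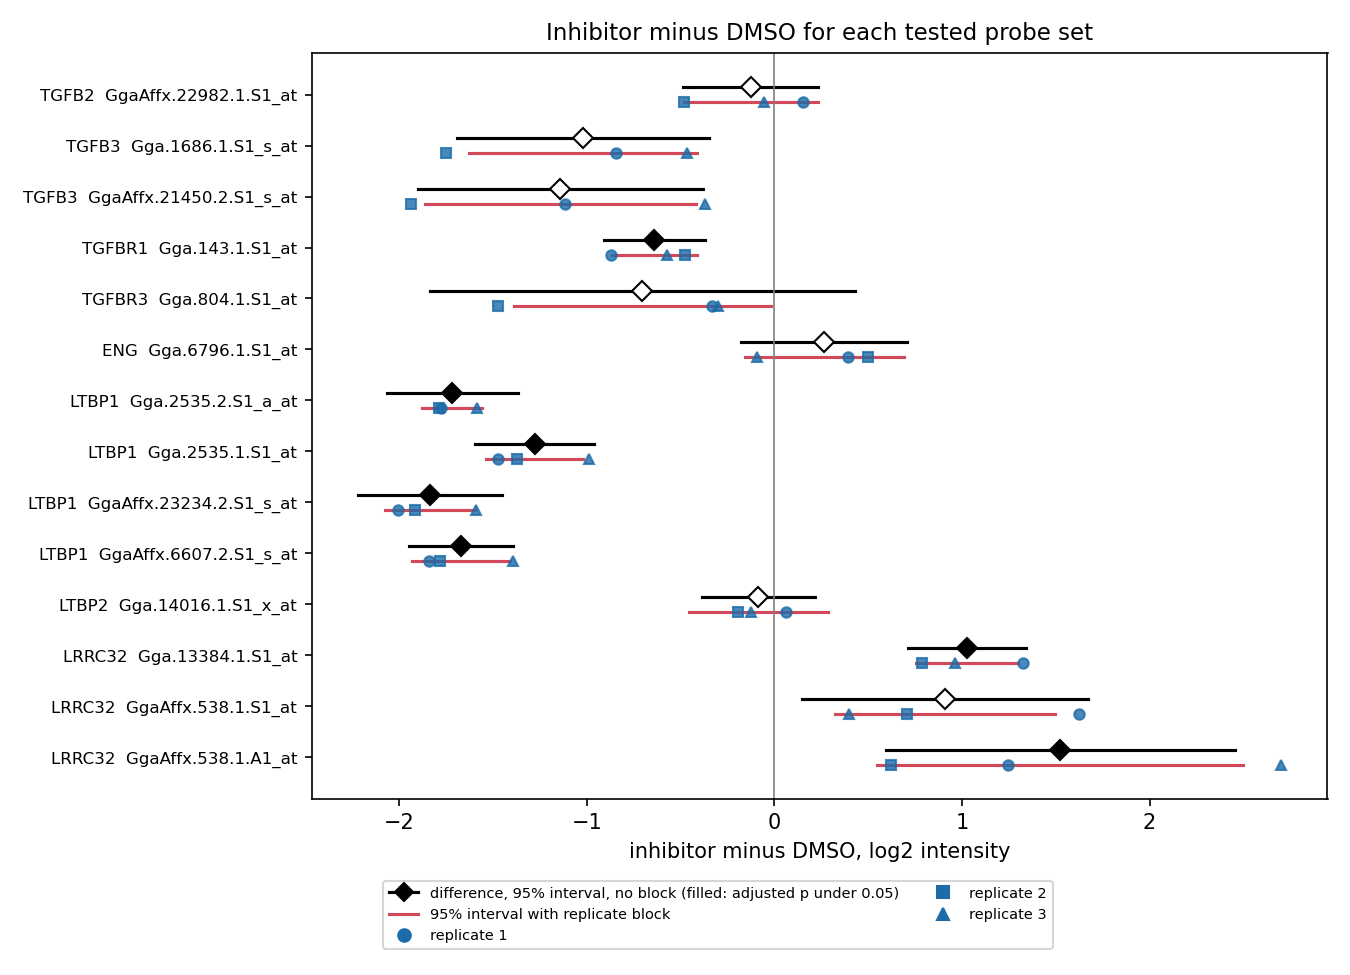
Inhibitor minus DMSO difference in log2 intensity (x axis) for each of the 14 tested probe sets (y axis). Black diamonds and bars give the difference and 95% interval of the fit without a block, filled where the adjusted p was under 0.05; red bars give the interval with the replicate block and blue symbols the difference within each replicate number. The 4 LTBP1 probe sets sit between -1.84 and -1.28, and the blue symbols lie far apart for TGFB3, TGFBR3 and the dimmest LRRC32 probe set.

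LTBP1, which links latent TGF-beta to the matrix, had the largest log2 differences among the tested probe sets of these genes, with 1 exception. Its probe set that fell least (-1.28) changed less than the dimmest LRRC32 probe set (1.52). It has 7 probe sets, of which 4 were bright and 3 dark. The brightest read 14.40, 14.21 and 13.89 in DMSO arrays and 12.62, 12.42 and 12.31 in inhibitor arrays. The lowest DMSO array was above the highest inhibitor array by more than the whole range within either group. The difference was -1.72 ± 0.15, a 3.29-fold fall with a 95% interval from 2.58-fold to 4.19-fold (limma adjusted p 0.00151). The differences within replicates 1, 2 and 3 were -1.78, -1.79 and -1.59, and blocking on the number reduced the SE to 0.06.

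The other 3 bright LTBP1 probe sets fell as well. The third brightest went from a mean of 13.09 ± 0.31 (SD, n = 3) to 11.25 ± 0.11, a difference of -1.84 ± 0.16 (limma adjusted p 0.00166). The dimmest of the 4 went from 12.51 ± 0.18 to 10.84 ± 0.10, a difference of -1.67 ± 0.11 (limma adjusted p 0.000781). The next brightest after the first fell least, from 13.84 ± 0.03 to 12.56 ± 0.26, a difference of -1.28 ± 0.13 (limma adjusted p 0.00269), and its inhibitor 3 value of 12.86 was the highest of that group. Its 95% interval, from -1.59 to -0.96, overlapped those of the other 3 without a block. With the replicate block, its interval from -1.54 to -1.02 did not overlap that of the brightest (-1.88 to -1.56) or of the third brightest (-2.07 to -1.60). The difference between probe sets was not itself tested. The third brightest and the dimmest of the 4 have names ending in _s_at, so their probes can match more than 1 transcript. All 4 probe sets stayed called whichever array was left out, and of all tested probe sets 1.48% to 2.52% had a difference as low or lower.

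The 3 dark LTBP1 probe sets read between 2.26 and 3.09 on all 6 arrays and were not tested. Their differences of -0.14, -0.21 and -0.31 were downward in each same-numbered pair, and none passed in the fit with no filter (limma adjusted p 0.336 to 0.503). Which part of the LTBP1 transcripts each probe set reads is not stated in the annotation used here.

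LTBP2, a matrix protein of the same family that is known not to bind latent TGF-beta, has 7 probe sets and gave hardly any signal. Only 1 passed the filter, at 4.14, 4.20 and 4.14 in DMSO arrays and 4.21, 4.01 and 4.01 in inhibitor arrays. Its values lie just above the limit, the groups overlapped, and the difference was -0.09 ± 0.13 (limma adjusted p 0.708). Its name ends in _x_at, which marks probes that can bind unrelated transcripts, and the probe set with the same name but for that ending read 1.57 to 1.61 on all arrays. The other dim probe sets of LTBP2 read between 1.92 and 3.38. LTBP2 and TGFB3 lie on the same chromosome with 20 other annotated genes between their starts in assembly GRCg7b. No LTBP3 value can be given, and LTBP4 was likewise not named on the array.

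LRRC32, which tethers latent TGF-beta to the cell surface and is best known from regulatory T cells, platelets and endothelium, rose. The brightest of its 3 probe sets read 12.61, 13.06 and 12.74 in DMSO arrays and 13.93, 13.85 and 13.70 in inhibitor arrays. All inhibitor arrays lay above all DMSO arrays, and the rise was seen in 3 of 3 pairs, at 1.33, 0.79 and 0.96. The difference was 1.03 ± 0.13, a 2.04-fold rise with a 95% interval from 1.64-fold to 2.53-fold (limma adjusted p 0.00535). It stayed called whichever array was left out.

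The other LRRC32 probe sets pointed the same way with much more spread. The dimmest, whose name ends in A1_at, read 7.60, 7.79 and 7.19 in DMSO arrays and 8.85, 8.42 and 9.90 in inhibitor arrays, a rise of 1.52 ± 0.39 (limma adjusted p 0.0486). The middle one, which bears the same number and ends in S1_at, read 11.11, 11.67 and 11.15 against 12.74, 12.38 and 11.55, and its groups overlapped (0.91 ± 0.32, limma adjusted p 0.114; with the block 0.0386). With the block this call was lost when replicate number 1 (0.55, limma adjusted p 0.0504) or 2 (1.01, 0.0960) was left out. The probe sets disagreed most in replicate 3, where the A1 probe set gave a difference of 2.70, the S1 probe set of the same number 0.40 and the brightest 0.96. The call of the A1 probe set was lost when any single DMSO array or inhibitor 1 was left out (limma adjusted p 0.0888 to 0.140). With the block its call was lost without replicate number 1 (limma adjusted p 0.116) and held without number 2 (0.0334) or 3 (0.0139). With all tested probe sets of the gene averaged, LRRC32 rose by 1.15 ± 0.15 (limma adjusted p 0.00515).

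Immune markers were examined because LRRC32 is known from such cells. The linear intensities of the 8 immune markers on the array summed to between 302 and 361 in DMSO and between 460 and 580 in inhibitor arrays, and limma called 0 of the 4 tested, also with the replicate block, while 1 had an unadjusted p under 0.05. The brightest was PTPRC, the leukocyte antigen CD45 (0.74 ± 0.22, limma adjusted p 0.0780). CD74, the invariant chain, stood at 0.58 ± 0.25 (limma adjusted p 0.181), the protease CTSS at 0.28 ± 0.25 (0.512) and the receptor CSF1R at -0.21 ± 0.15 (0.400). The T-cell receptor component CD3E and the myeloid factor SPI1 lay at the floor, with highest array values of 2.25 and 2.45. LY86 also lay there (highest array 2.42). C1QB did not pass the filter, but it averaged 2.42 in DMSO and 3.24 in inhibitor arrays and reached 5.04 on its highest array. Summed melanocyte markers were also higher without overlap, at 218 to 418 in DMSO and 502 to 657 in inhibitor arrays, and this sum rests on MITF alone (mean 8.11 in DMSO and 9.08 in inhibitor arrays), as DCT, TYRP1, TYR, PMEL and MLANA lay at the floor with means of at most 2.53. The skeletal muscle sum, at 127 to 185 and 190.1 to 606, rests mainly on MYH1E (6.70 and 8.08), with MYOD1, MYOG, MYF5, DES and PAX7 at the floor. The part of these markers in the LRRC32 difference was not tested, and in bulk RNA more cells of a type and more RNA per cell cannot be told apart.

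A small root mean square difference of mean-centred log2 values over the 6 arrays means a similar course. Genes were compared by their brightest tested probe set. Placeholder symbols and probe sets without a single symbol were left out, so closer probe sets may exist among those. The 3 closest genes are given for each called probe set. For the brightest LTBP1 probe set they were CRIP1 (0.14), a LIM-domain protein, LRP12 (0.17) and PCBD1 (0.17). For the third brightest they were PTPRN2 (0.16), SLC25A25 (0.16) and CRIP1 (0.18), and for the dimmest of the 4 PCBD1 (0.13), CRIP1 (0.14) and OLFM1 (0.16), whereas the closest to the one that fell least were SEC14L1 (0.08), FGD6 (0.09) and the collagen prolyl hydroxylase P4HA2 (0.10). TGFBR1 lay closest to LNPK (0.06), SLAIN2 (0.07) and CHCHD4 (0.07). The brightest LRRC32 probe set lay closest to BPHL (0.06), DCBLD2 (0.07) and PIK3IP1 (0.09), and its A1 probe set to DOT1L (0.27), RASGEF1A (0.28) and KIF21A (0.28). These are descriptions over 6 arrays, in which the difference between the groups dominates.

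The other genes of the pathway were counted by role, each gene by its brightest tested probe set, where 8.17% of 8124 tested genes rose and 7.5% fell (15.7% in all, and 31.6% with the replicate block). Of 13 tested genes that release or activate latent TGF-beta, 5 fell and 2 rose, with a median of -0.19 against 0.01 over all genes. Those that fell were the integrin chains ITGB3 (-3.07 ± 0.74) and ITGB5 (-1.72 ± 0.13), which pair with the alpha-v chain to bind the latent complex, THBS1, the thrombospondin that activates latent TGF-beta (-1.14 ± 0.25), the proteinase TLL1 (-2.26 ± 0.26) and urokinase, PLAU (-2.78 ± 0.41). The alpha-v chain ITGAV itself stood at 0.11 ± 0.10 (limma adjusted p 0.516) and the convertase FURIN, which cleaves the TGF-beta precursor, at -0.02 ± 0.12 (0.946). The genes that rose were TGM2, the transglutaminase that crosslinks latent TGF-beta binding proteins into the matrix (3.30 ± 0.32), and tissue plasminogen activator, PLAT (2.48 ± 0.24, and 4.31 by another probe set). PLAU in inhibitor arrays and PLAT in DMSO arrays averaged under 4, so the size of their folds depends on the floor. TGM2 averaged 4.49 in DMSO arrays.

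Of 7 other tested ligand, latency and binding genes, 1 fell and 0 rose by limma without a block, against 2 and 0 with it and 2 and 0 at an unadjusted p under 0.05. The small proteoglycan biglycan, BGN, which can bind TGF-beta, fell by 3.65 on the log2 scale (limma adjusted p 0.00105), while decorin, DCN, stood at -0.03 ± 0.10 (0.888). The fibrillins that carry latent TGF-beta binding proteins in the matrix did not pass, with FBN1 at -0.01 ± 0.36 (95% interval -0.87 to 0.86, limma adjusted p 0.993) and FBN2 at -0.11 ± 0.20 (0.765). The arrays ranged from 8.04 to 9.25 for FBN1. NRROS, a relative of LRRC32 known from microglia and macrophages, was at the floor, with a mean of 1.92 in both groups.

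Downstream of the receptor 4 of 23 tested signalling and turnover genes fell and 1 rose, against 8 and 3 with the replicate block. SMURF2, a ubiquitin ligase that targets the receptors (-2.86 ± 0.09), LDLRAD4 (-2.16 ± 0.22) and PMEPA1 (-1.93 ± 0.12), which restrain SMAD activation, and the kinase MAP3K7 (-0.41 ± 0.09), also called TAK1, fell. Caveolin, CAV1, through which TGF-beta receptors are internalised and degraded, rose (1.38 ± 0.19). SMAD7, the inhibitory SMAD that recruits SMURF2 to TGFBR1, stood at -0.33 ± 0.21 (limma adjusted p 0.369). SMAD2 (1.14 ± 0.46) and DAB2 (0.95 ± 0.31) passed as higher only with the replicate block, and the groups overlapped for SMAD2. SKIL (-1.98 ± 0.67), TGIF1 (-1.01 ± 0.33), SKI (-0.78 ± 0.24) and STRAP (-0.26 ± 0.09) passed as lower only with it. Of 18 tested target genes of the pathway 7 fell and 0 rose (limma; 9 and 0 at an unadjusted p under 0.05, and 9 and 0 with the replicate block). They were TGFBI (-4.25 ± 0.49), HAS2 (-3.77 ± 0.38, with an inhibitor mean under 4), BHLHE40 (-3.16 ± 0.18), POSTN (-2.81 ± 0.55), TNC (-2.65 ± 0.41), TIMP3 (-2.45 ± 0.28) and SNAI2 (-1.24 ± 0.29). ACTA2 stood at 0.46 ± 0.26 (limma adjusted p 0.301). The remaining target genes were not called either. COL1A1 stood at -0.11, COL1A2 at -0.35, COL3A1 at 0.004, FN1 at -0.09, CCN2 at -0.14, TAGLN at -0.18 and LOX at -0.65. ELN stood at 0.46, CDKN1A at 0.22 and CDKN2B at 0.67. With the replicate block COL1A2 and LOX passed (limma adjusted p 0.0220 and 0.0339). With 1 array left out the calls of ITGB3, MAP3K7, POSTN and SNAI2 were each lost in 5 of 6 fits and that of THBS1 in 4 of 6 (limma adjusted p 0.0524 to 0.125), and each of these genes passed with all arrays and the replicate block. Dimmer probe sets did not pass for MAP3K7 (-0.27 and -0.52) and, with 1 of 2, for THBS1 (-0.94).

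**Figure D3:**
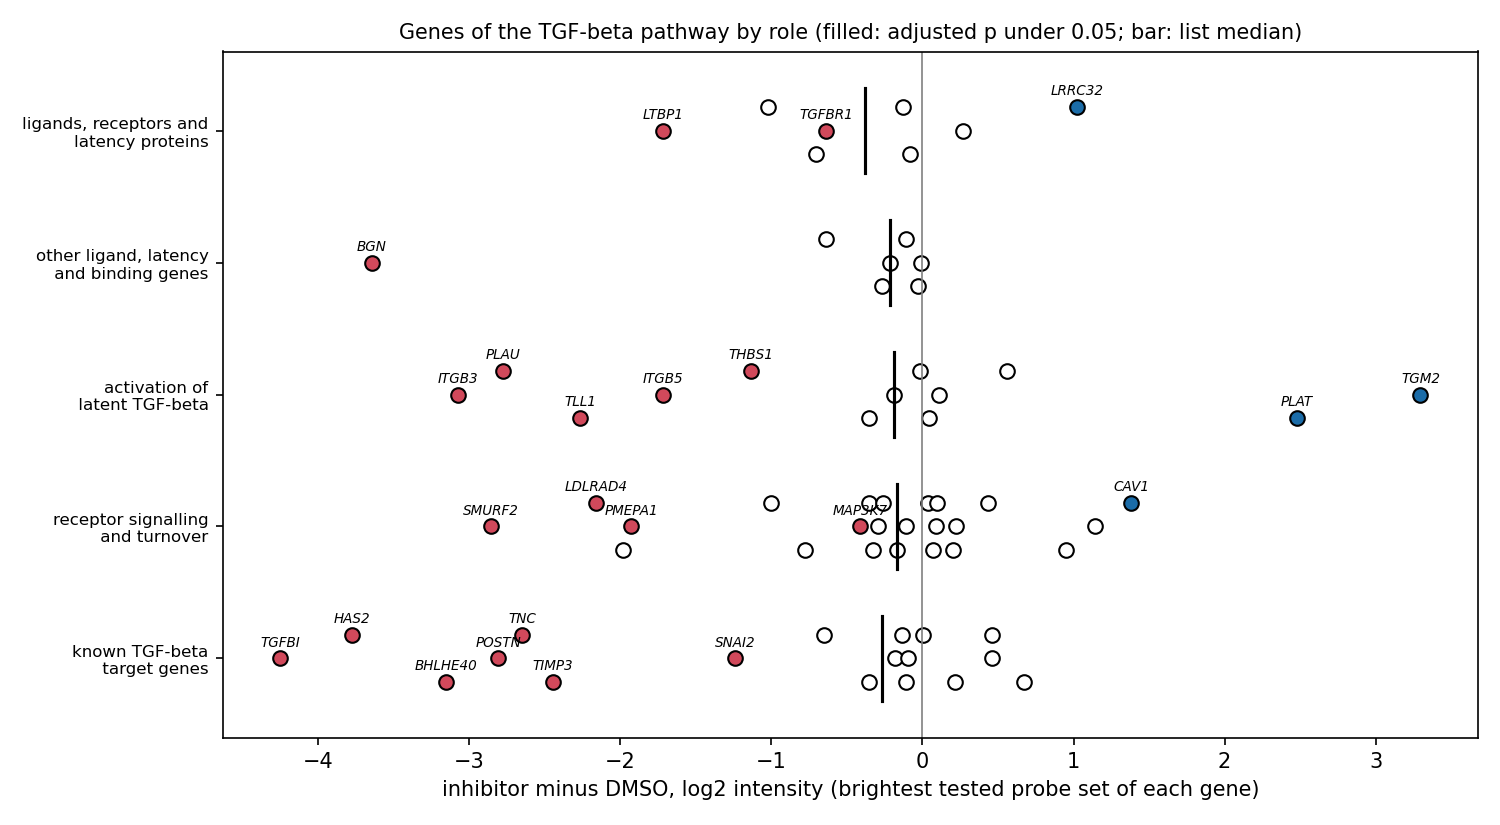
Inhibitor minus DMSO difference in log2 intensity (x axis) of each tested gene of the TGF-beta pathway, by role (y axis); filled circles are called, red lower and blue higher, open circles are not called, and vertical bars are list medians. The list medians lie between -0.38 and -0.17 while single genes reach from -4.25 for TGFBI to 3.30 for TGM2.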

How the data were processed

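The authors deposited log2 intensities for each array, made with GCRMA; Partek 6.4 is also listed in the submitters' processing notes. The log2 scale was read from the values (1.12 to 16.0). The GCRMA version and settings are not stated, and scanner files were not used. GCRMA gathers dim probe sets at a floor, which hides differences there. Whether differences are also held back near the highest value, 16.0, was not tested. The number of arrays limits the precision.

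Controls (96 of 38535 probe sets) were left out, and 16567 (43.1%) passed the filter. Symbols came from the platform annotation, which can be old. The gene identifiers of all 25 probe sets were found, with the same symbol, in the GRCg7b gene table. limma 3.58.1 in R 4.3.3 (lmFit, eBayes with trend, two-sided, no block) gave differences, moderated SE, 95% intervals and adjusted p. The fit was also run on simulated data whose noise was independent between arrays. That run did not include the correlation of same-numbered arrays given below, so it cannot show how the fit behaves under it. Groups and numbers came from titles. Deviations from group means correlated at 0.63, 0.67 and 0.45 between same-numbered arrays and at -0.45 to -0.14 between unlike ones. Deviations from a shared group mean are tied to each other, so the values of unlike arrays are not separate evidence. Among the fits, the numbers were therefore taken as pairs only in those with a block, and the labels do not describe a pairing. Differences within same-numbered pairs, in the text and figures, are descriptions. No 2 arrays were identical.

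The members, lists and alternatives were chosen with earlier results of these data known. Named genes were every member, every called gene of 4 other pathway lists, TGFB1, LTBP4, FBN1, SMAD7, TGFBI, ACTA2 and the 3 closest genes of each called member probe set; further genes named with values were chosen after their values were seen. One further gene of this rule is not reported here. Of the other marker lists, skeletal muscle had 2 tested genes, melanocyte and Schwann cell 1 each and blood 0, with 0 called by limma, 2 at an unadjusted p under 0.05 (MYH1E and MITF) and 1 with the block (MITF).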

Additional observations from a re-analysis of the deposited data

How the results depend on the processing

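Over 14 tested probe sets and 18 alternatives, 214 of 244 values kept their direction and their side of the threshold, 18 gained a call, 10 lost one and 2 changed sign. Both sign changes were those of TGFB2, which was not called: it ran from -0.21 to 0.013 with 1 array left out, the latter without inhibitor 2, and stood at 0.051 with the replicate block and without replicate 2. With the replicate block TGFB3 (both probe sets) and the S1 probe set of LRRC32 passed, and the block changed no other call of these genes. TGFBR1 lost its call without moderation (limma adjusted p 0.0681). The A1 probe set of LRRC32 lost its call with no filter (0.128), without trend (0.0554) and without moderation (0.157). TGFB3 passed without a block by both probe sets with a stricter filter of 6 (0.0480 and 0.0493) and by its brighter one with median centring (0.0497). With the replicate block and no filter, which is not among the 18 alternatives, neither TGFB3 probe set passed (limma adjusted p 0.157 and 0.176). The S1 and A1 probe sets of LRRC32 did not pass there either (0.182 and 0.181). The causes were not tested.

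The count of called probe sets of these genes was 5 to 10 with 1 array left out. Over all tested probe sets the count of 2283 became 1285 with no filter, 4661 with the replicate block, 4820 with it as a random effect, 996 without moderation, 1107 to 1658 with 1 array left out, and 1914 to 4979 with the replicate block and 1 replicate number left out. The 20 called genes of the 4 other lists became 12 without moderation, 15 to 18 with 1 array left out, 21 to 31 with the replicate block and 1 number left out, and 32 with every probe set counted on its own. Dim probe sets (TGFBR2, 3 of LTBP1, 6 of LTBP2) bound what can be said of them.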
